A study of Mus musculus with 8 samples.

Results

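Voltage-gated calcium channels are assembled from subunits, and 10 genes for such subunits are described here in mouse embryonic fibroblasts undergoing direct cardiac reprogramming. They are the pore-forming subunits Cacna1b, Cacna1c, Cacna1d, Cacna1g and Cacna1h, the beta subunits Cacnb1, Cacnb2, Cacnb3 and Cacnb4, and the alpha2delta subunit Cacna2d1. Each was found by its symbol in the authors' tables, where every symbol had 1 row, so the set is 10 of 50600 genes. The 10 symbols were chosen by family with the fold changes and p-values of these same comparisons in view, so the values against ethanol are a description. All 10 had an adjusted p in each table, and none was lost to the filter on low counts. The fibroblasts were C57BL/6 and all were transduced with the cardiac factors of GHMT (Gata4, Hand2, Mef2c, Tbx5) and kept in StemPro-34 medium. For 7 days they received 0.1% ethanol, 1% DMSO, 5 µM I-CBP112 or 5 µM C646, with 2 libraries in each group and 8 in all. I-CBP112 is a ligand of the CBP and p300 bromodomains, and C646 inhibits the acetyltransferase activity of the same proteins. No source used here names the solvent of either inhibitor, and effects of inhibitor and solvent cannot be told apart. Whether the libraries of a group came from separate cultures is not stated, so p-values may measure technical spread alone. The titles end in B2 and B3 in every group and do not say whether these labels pair libraries between groups. The SEs rebuilt here between treatments use no such pairing.

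These channels open when the membrane depolarises and let calcium into the cell. The pore-forming subunit sets the type of current. In L-type and N-type channels the beta subunit binds the pore from inside and brings it to the membrane. There the alpha2delta subunit sits outside and raises the current. In heart muscle cells the L-type channel built on Cacna1c starts each beat's calcium signal by opening the ryanodine receptor Ryr2 on the sarcoplasmic reticulum.

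The 3 tables hold, per gene, a mean normalised count over all 8 libraries, a log2 fold change of DMSO, I-CBP112 or C646 against 1 reference, read here as ethanol, and its standard error (SE, given after ±). They hold no values of single libraries, so the spread within a group is seen only through the SE. Group means were rebuilt from the mean count and the 3 fold changes. The mean counts sum to 37997800 per library on the normalised scale. All 10 fibroblast markers had counts, with a summed group mean of 1075240 with ethanol, 681563 with DMSO, 654439 under I-CBP112 and 1058870 with C646, and 8, 6 and 0 of them fell. The sum for 10 cardiomyocyte markers was 117966, 330795, 332576 and 120204, and 8, 10 and 0 of them rose. The sum for 7 smooth muscle markers was 129660, 87954, 132386 and 127924, and 7, 1 and 0 of them fell. Here a fall or rise means an adjusted p below 0.05 against ethanol. With DMSO and I-CBP112, 16.0% and 9.90% of the 14830 tested genes passed in either direction. With C646 it was 0.00584% of 34250 genes, a wider set that takes in genes with few counts. In such bulk RNA, fewer cells of a type and less RNA per cell cannot be told apart.

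In these cells 3 of the 10 subunits changed against ethanol, each in 1 treatment. Cacnb4 fell with C646 to a level 3.06 times lower, Cacna1b rose 3.62-fold with DMSO, and Cacna1h fell with I-CBP112 to a level 2.11 times lower. The L-type pore Cacna1c and its partner Cacna2d1, the members with the highest mean counts, did not pass the test in any treatment. With DMSO 1 of the 10 passed, upward, beside 16.0% of all tested genes (8.07% higher and 7.90% lower). With I-CBP112 1 of 10 passed, downward, beside 9.90% of all tested genes (4.65% higher and 5.25% lower). With C646 it was 1 of 10, downward, beside 0.00584% of all genes, which is 2 of 34250 (0.00292% higher and 0.00292% lower). The members' median log2 fold change was 0.05 with DMSO, -0.06 under I-CBP112 and -0.11 with C646, and that of all tested genes was 0.03, 0.01 and 0.00. Because the members were picked with these contrasts known, nothing is read from their counts. The plot of group means sets the 10 subunits side by side.

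**Figure D1:**
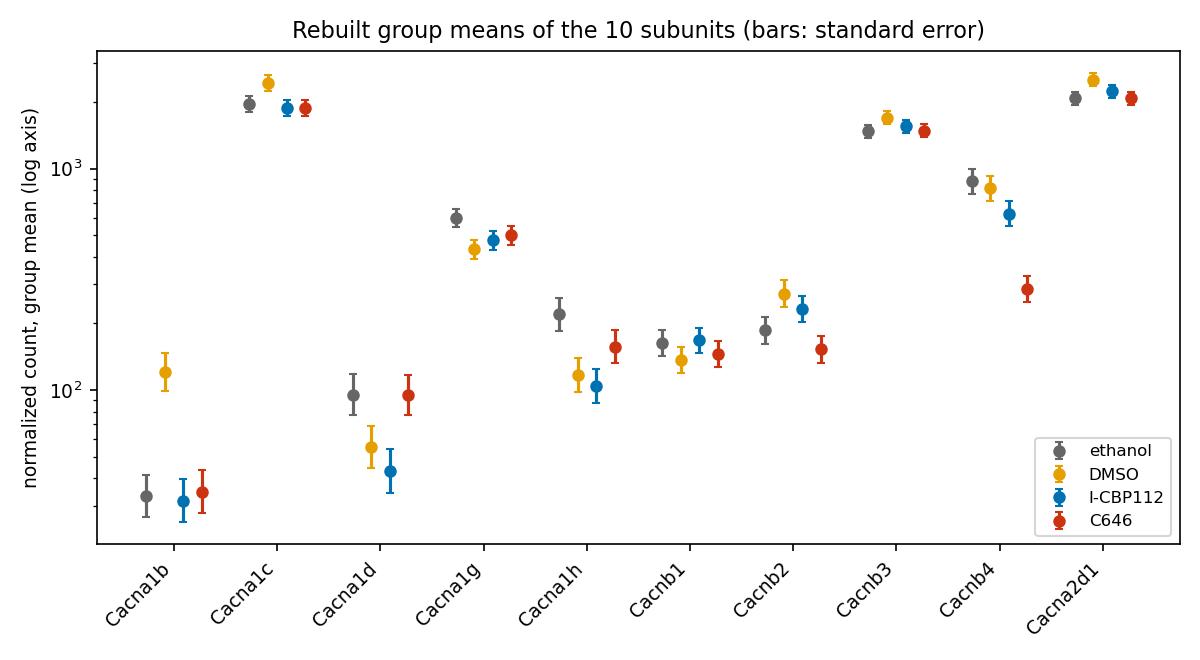
Group means of the 10 subunits in normalised counts (vertical axis, log scale), rebuilt for ethanol, DMSO, I-CBP112 and C646; bars are 1 SE to either side. Cacnb4 is at 287 with C646 against 626 to 878 in the other groups, and Cacna1b at 121 with DMSO against 31.7 to 34.8.

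Per kilobase of exon, the beta subunit Cacnb3 had the highest group mean with ethanol, at 367 normalised counts per kilobase, followed by Cacna2d1 at 167. Cacnb4 at 97.9 and Cacna1c at 92.4 stood close together, and their order turns when the longest transcript is taken as the length (107 and 149 per kilobase). Next on the per-kilobase scale came Cacna1g at 59.1, Cacnb1 at 35.9, Cacna1h at 22.5 and Cacnb2 at 14.1. The order of Cacna1h and Cacnb2 also turns with the longest transcript, to 26.7 and 37.0 per kilobase. Cacna1d at 7.56 and Cacna1b at 3.35 per kilobase were the lowest. Among the 5 pore-forming members, which leaves out Cacna1a and Cacna1e, Cacna1c made up 49.96% ± 2.8 of the RNA per kilobase with ethanol, 61.8% ± 2.6 with DMSO, 58.1% ± 2.8 under I-CBP112 and 53.7% ± 2.8 with C646.

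Promoter stretches of 2 genes are shown because they lie before the starts of the genes with the highest and the lowest fold change among the members. Both are the 250 bases before a RefSeq transcript start on GRCm38.p6, 5′ to 3′ on the gene's strand, with matches to the E-box CANNTG, the kind of site bound by Hand2 and other basic helix-loop-helix factors, in capitals.
Cacna1b, chr2:24763153-24763402, minus strand: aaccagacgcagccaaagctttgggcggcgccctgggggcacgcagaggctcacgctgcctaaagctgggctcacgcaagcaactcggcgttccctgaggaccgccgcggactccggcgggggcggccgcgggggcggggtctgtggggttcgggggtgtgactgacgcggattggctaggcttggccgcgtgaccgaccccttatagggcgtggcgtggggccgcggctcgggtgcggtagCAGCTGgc
Cacnb4, chr2:52558612-52558861, minus strand, before the inner start: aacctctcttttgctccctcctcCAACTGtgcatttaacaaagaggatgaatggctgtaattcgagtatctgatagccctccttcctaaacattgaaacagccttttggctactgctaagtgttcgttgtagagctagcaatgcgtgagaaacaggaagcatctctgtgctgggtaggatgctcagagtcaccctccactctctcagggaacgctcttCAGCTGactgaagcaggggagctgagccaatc
The Cacna1b window of 300 bases (250 before and 50 after the start) held 35 CpG and a GC content of 72.3%, and its CAGCTG begins at -8 from the start. The inner Cacnb4 window held 5 CpG and 49.7% GC, with CAACTG at -227 and CAGCTG at -32 from the start. The outer starts of Cacnb4, at position 52676143 and position 52675859, have windows with 40 and 27 CpG and no E-box. Their stretches are not shown because 123 and 89 of the 250 bases lie in exons of the gene. The inner start was thus shown for its lack of exon bases, and which start is in use was not tested. The median over 32851 promoter windows was 7 CpG and 52.7% GC. The table of promoters held 16 windows for 8 of the 10 members. An E-box stood in 10 of the 16 windows (62.5%), beside 72.3% of all windows. The T-box half-site AGGTGT, the kind of site Tbx5 binds, was in 1 of 16 and in 13.7% of all windows, where it overlapped an E-box of the middle Cacna1c window. The GATA site AGATAA (11.2% of all windows) and the MEF2 site (3.69%) were in 0 of 16. All 4 motifs were searched on both strands. The counts of the tables are per gene and do not part the starts of Cacnb4.

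Among the pore-forming subunits, Cacna1b, the pore of the N-type channel of nerve endings, was low in every group and highest with DMSO. It lies on chromosome 2, 24603887 to 24763152, minus strand (ENSMUSG00000004113.18). Its rebuilt group mean was 33.3 normalised counts with ethanol, 121 with DMSO, 31.7 under I-CBP112 and 34.8 with C646, with SEs of 0.28 to 0.32 on the log2 scale. DMSO alone stood apart, and the other groups lay within their SEs of each other. The authors' deposited table gives DMSO a log2 fold change of 1.86 ± 0.44 over ethanol (DESeq2 adjusted p = 0.000408). In the authors' deposited tables the other values were -0.07 ± 0.44 with I-CBP112 and 0.06 ± 0.44 with C646 (DESeq2 adjusted p = 0.97 and 1). Of 9 markers of neurons, the cells known for this channel, 5 were measured, and 0 rose and 2 fell with DMSO. The 2 that fell were Stmn2 and Gap43, while Syn1 stood at 1.23 ± 0.57 without passing (DESeq2 adjusted p = 0.14). Over all 9 the summed level was 5339 with ethanol, 4344 with DMSO, 7034 under I-CBP112 and 5294 with C646. Map2 at 3498 and Tubb3 at 1436 with ethanol made up most of it. The cardiomyocyte markers rose with DMSO as given above, and the part of either set in the Cacna1b value was not tested.

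Cacna1c, the L-type pore of heart and smooth muscle (chromosome 6, 118587240 to 119196418, minus strand, ENSMUSG00000051331.15), was above the other pore-forming members in every group, also per kilobase. Its group mean was 1958 with ethanol, 2440.3 with DMSO, 1882 under I-CBP112 and 1877 with C646, with an SE of 0.12 (log2) in each. DMSO was the highest, 1.25-fold over ethanol, and the other groups differed from each other by less than 1 SE. The authors' deposited tables give log2 fold changes of 0.32 ± 0.17 with DMSO, -0.06 ± 0.17 under I-CBP112 and -0.06 ± 0.17 with C646, none past the test (DESeq2 adjusted p = 0.21, 0.94 and 1). The 95% interval of the DMSO value runs from -0.01 to 0.64. All 7 smooth muscle markers fell with DMSO and 8 of 10 cardiomyocyte markers rose; their part in the Cacna1c value was not tested.

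The other L-type pore measured here, Cacna1d, known from the sinoatrial node and endocrine cells (chromosome 14, 30039939 to 30491455, minus strand), was lower with DMSO and I-CBP112 in value, but no comparison passed the test. Its group means were 95.5 with ethanol, 55.3 with DMSO, 43.1 under I-CBP112 and 94.97 with C646. Ethanol and C646 were alike to within 0.01 on the log2 scale. The authors' deposited tables give -0.79 ± 0.44 with DMSO, -1.15 ± 0.44 under I-CBP112 and -0.01 ± 0.43 with C646 (DESeq2 adjusted p = 0.24, 0.082 and 1). Chdh, a gene on the opposite strand, shares 589 exon bases with Cacna1d and stood at -1.31 ± 0.55 with DMSO and -0.23 ± 0.54 with I-CBP112 in the authors' deposited tables. No source used here states whether strand was used in counting, and reads from the shared bases may belong to either gene.

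Cacna1g and Cacna1h are pores of the T-type channel, which opens at low voltage and is known from embryonic heart and pacemaker cells. Cacna1h (chromosome 17, 25374285 to 25433783, minus strand, ENSMUSG00000024112.16) had group means of 219.7 with ethanol, 117 with DMSO, 104 under I-CBP112 and 157 with C646, with SEs of 0.25 to 0.26 (log2). Ethanol was the highest group and I-CBP112 the lowest, with DMSO next to it. The authors' deposited table for I-CBP112 has -1.08 ± 0.36 (DESeq2 adjusted p = 0.031), which was past the threshold, and an adjusted p of 0.071 when adjusted over all 34250 genes. With DMSO the authors' deposited value was -0.91 ± 0.36 and with C646 -0.48 ± 0.35, neither past the test (DESeq2 adjusted p = 0.065 and 1). Fibroblast markers also fell with I-CBP112, 6 of 10; their part in this value was not tested. Cacna1g (chromosome 11, 94408391 to 94474198, minus strand) had 599 normalised counts with ethanol, 432 with DMSO, 475 under I-CBP112 and 499 with C646. Ethanol was again the highest group, and all 3 treatments were below it in value. Its log2 fold changes in the authors' deposited tables were -0.47 ± 0.20, -0.34 ± 0.20 and -0.26 ± 0.20, none past the test (DESeq2 adjusted p = 0.085, 0.36 and 1).

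**Figure D2:**
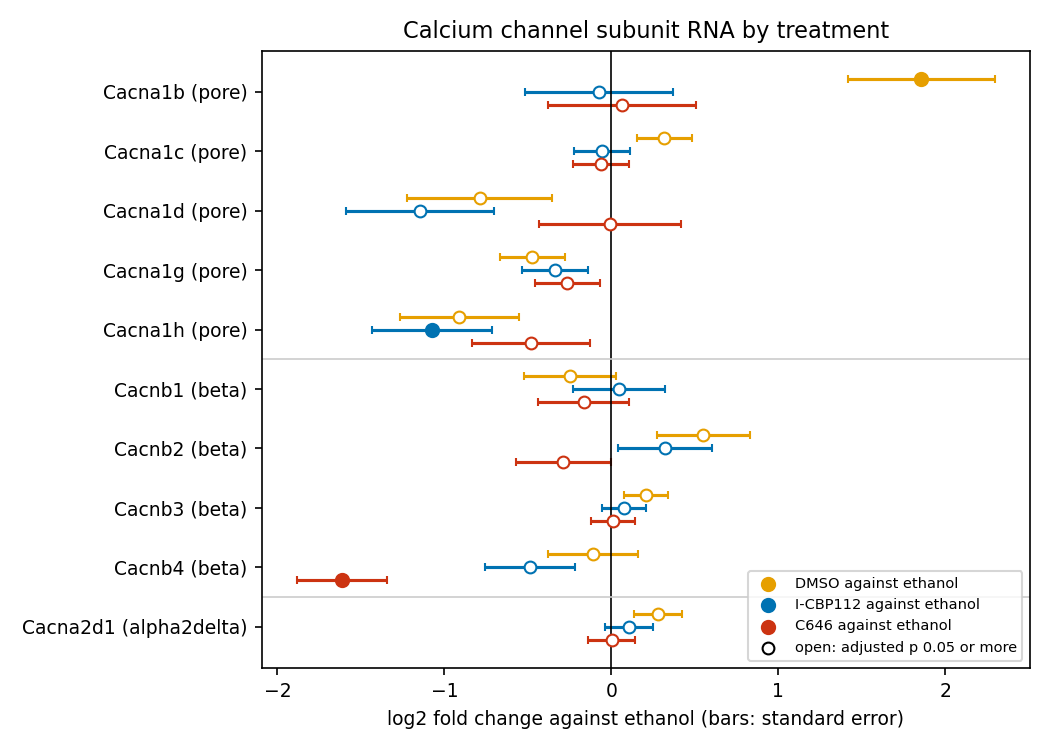
Log2 fold change against ethanol (horizontal axis) of each subunit with DMSO, I-CBP112 and C646 in the authors' deposited tables; bars are 1 SE to either side and filled points are past an adjusted p of 0.05. The 3 filled points are Cacna1b with DMSO at 1.86, Cacna1h with I-CBP112 at -1.08 and Cacnb4 with C646 at -1.61.

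Among the beta subunits Cacnb4, best known from brain, had the widest range over the groups. It lies on chromosome 2, 52428320 to 52676831, minus strand (ENSMUSG00000017412.15). Its group mean was 878 normalised counts with ethanol, 814 with DMSO, 626 under I-CBP112 and 287 with C646, with SEs of 0.19 to 0.20 (log2). C646 was the lowest group, and the SEs of ethanol and DMSO overlapped. The authors' deposited table for C646 gives -1.61 ± 0.27 (DESeq2 adjusted p = 7.38e-05), the smallest p of its 34250 genes. The only other gene past the threshold there, in the authors' deposited table, was Gm37167 at 8.39 ± 1.68 with a mean count of 14.5 (DESeq2 adjusted p = 0.0098), named after its value was seen. With DMSO Cacnb4 stood at -0.11 ± 0.27 and with I-CBP112 at -0.49 ± 0.27 in the authors' deposited tables (DESeq2 adjusted p = 0.86 and 0.32). No fibroblast, cardiomyocyte, smooth muscle, skeletal muscle, neuron, leukocyte or endothelial marker of the lists passed the test with C646. Only 2 of 34250 genes passed there, so this count cannot show whether the mix of cell types changed. The summed neuron markers were 5294 with C646 against 5339 with ethanol.

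The fit gave Cacnb4 a wider error than most genes of its level. Its SE of 0.27 was above that of 98.3% of 1576 tested genes whose mean count lay within 1.25-fold of its own, whose median SE was 0.175. Which library carries this spread cannot be seen in tables without library values. A430018G15Rik, a transcript from the opposite strand, shares 1433 exon bases with Cacnb4, has a mean count of 55.4 and stood at -0.15 ± 0.47 with C646 in the authors' deposited table.

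**Figure D3:**
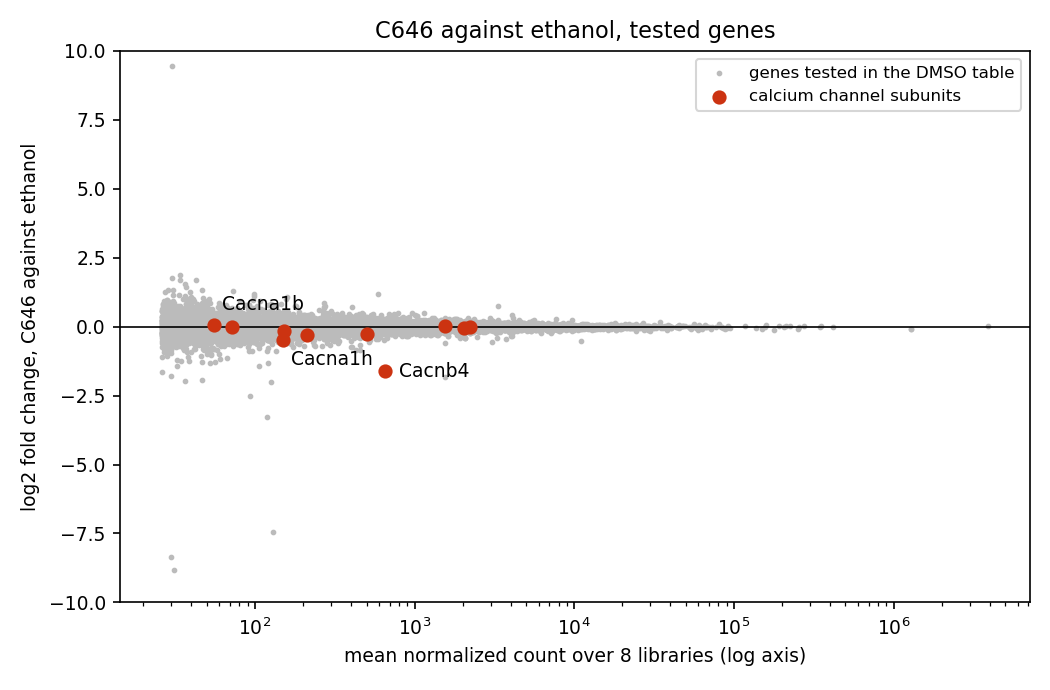
Log2 fold change of C646 against ethanol (vertical axis) over the mean normalised count of 8 libraries (horizontal axis, log scale) for the 14830 genes tested in the DMSO table, with the 10 subunits as larger coloured points. Cacnb4 is at -1.61 with a mean count of 651, and the other 9 subunits are between -0.48 and 0.06.

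Cacnb3 was the main beta subunit RNA in every group. It is found in many tissues and lies on chromosome 15, 98630840 to 98644529, plus strand. Its group means were 1474 with ethanol, 1699 with DMSO, 1551 under I-CBP112 and 1485 with C646, so the highest was 1.15-fold over the lowest. The authors' deposited tables give 0.21 ± 0.13, 0.07 ± 0.13 and 0.01 ± 0.13 (DESeq2 adjusted p = 0.33, 0.88 and 1). Cacnb2, the main beta subunit of the adult heart channel (chromosome 2, 14603088 to 14987908, plus strand), had 186 with ethanol, 273 with DMSO, 233 under I-CBP112 and 153 with C646. DMSO was its highest group and C646 its lowest. Against ethanol the authors' deposited tables have 0.55 ± 0.28, 0.32 ± 0.28 and -0.29 ± 0.29, none past the test (DESeq2 adjusted p = 0.19, 0.65 and 1). Cacnb1, the beta subunit of skeletal muscle (chromosome 11, 98001508 to 98023034, minus strand), had 163, 137, 168 and 145 in the same order of groups. Its fold changes in the authors' deposited tables, -0.25 ± 0.28, 0.04 ± 0.27 and -0.17 ± 0.27, were each within 1 SE of 0 (DESeq2 adjusted p = 0.64, 0.97 and 1).

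Set against each other per kilobase, the 4 beta subunits kept Cacnb3 as the majority in every group, with 71.3% ± 2.3 with ethanol, 74.9% ± 2.1 with DMSO, 75.6% ± 2.0 under I-CBP112 and 83.1% ± 1.5 with C646. Cacnb4 made up 19.0% ± 2.2 with ethanol, 16.1% ± 1.9 with DMSO, 13.7% ± 1.7 under I-CBP112 and 7.18% ± 0.98 with C646. Cacnb1 made up 7.17% ± 0.98 with C646. The summed beta subunit RNA was 515 normalised counts per kilobase with ethanol, 565 with DMSO, 511 under I-CBP112 and 446 with C646. With the longest transcript as length the Cacnb4 share was 14.6%, 12.1%, 10.3% and 5.35%, and that of Cacnb1 with C646 was 6.55%. These shares are a description and were not tested.

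**Figure D4:**
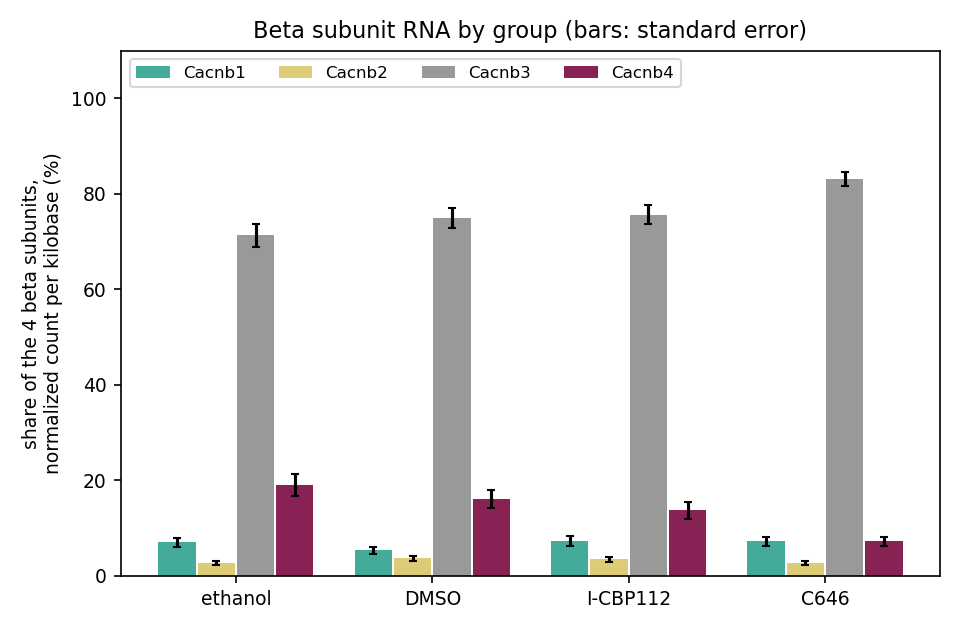
Share of each beta subunit (vertical axis, percent) in the summed normalised count per kilobase of the 4 beta subunits, for ethanol, DMSO, I-CBP112 and C646; bars are 1 SE to either side. The Cacnb4 share is 19.0% with ethanol and 7.18% with C646, where Cacnb3 reaches 83.1%.

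Cacna2d1, the alpha2delta subunit of heart and skeletal muscle channels and the binding site of gabapentin, had the highest mean count of the 10, at 2225. It lies on chromosome 5, 15934691 to 16374511, plus strand (ENSMUSG00000040118.15). The group means were 2073 with ethanol, 2516 with DMSO, 2232 under I-CBP112 and 2078 with C646, with an SE of 0.10 (log2) in each. DMSO was the highest, 1.21-fold over ethanol, and C646 and ethanol differed by 0.00 on the log2 scale. The authors' deposited tables give 0.28 ± 0.14, 0.11 ± 0.14 and 0.00 ± 0.14, none past the test (DESeq2 adjusted p = 0.19, 0.81 and 1). Like Cacna1b, Cacna1c, Cacnb2 and Cacnb3, it had its highest value with DMSO.

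The treatments were also set against each other, which asks whether an inhibitor's cells differed from those in DMSO or in the other inhibitor. Each difference of log2 fold changes was divided by an SE rebuilt from the 3 deposited SEs, and the two-sided p of a normal distribution was adjusted over 14830 genes (Benjamini-Hochberg). An upper bound of that SE, which adds the deposited SEs in quadrature, was tried beside it. These 30 member tests use the same libraries as the values above and are not independent of the choice of members. Between I-CBP112 and DMSO 1 of 10 members passed, downward, beside 6.97% of all tested genes (4.31% higher and 2.66% lower). It was Cacna1b, with a difference of -1.93 ± 0.43 (adjusted p = 0.00032), with an adjusted p of 0.091 under the upper bound of the SE. Between C646 and DMSO 3 of 10 passed, all downward, beside 15.8% of all tested genes (7.98% higher and 7.86% lower). Cacnb4 differed by -1.51 ± 0.27 (adjusted p = 1.13e-06) and stayed past the threshold under the upper bound of the SE, at an adjusted p of 0.0028. Cacna1b differed by -1.79 ± 0.42 (adjusted p = 0.00041, and adjusted p = 0.066 under the upper bound). Cacnb2 differed by -0.84 ± 0.28 (adjusted p = 0.024), at 153 with C646 against 273 with DMSO, though neither group passed against ethanol. Its adjusted p was 0.29 under the upper bound and 0.054 when adjusted over all genes.

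Between C646 and I-CBP112, which both act on CBP and p300, 1 of 10 members passed, downward, beside 9.80% of all tested genes (5.11% higher and 4.69% lower). Cacnb4 differed by -1.13 ± 0.27, lower with C646 (adjusted p = 0.0009, and adjusted p = 0.079 under the upper bound). In the order of its levels, C646 thus differed from its neighbour I-CBP112, while I-CBP112 and DMSO (-0.38 ± 0.27, adjusted p = 0.53) and DMSO and ethanol did not differ beyond their spread. For Cacna1b the order was I-CBP112, ethanol, C646 and DMSO, and the C646 minus I-CBP112 difference of 0.14 ± 0.45 had a 95% interval from -0.75 to 1.02. For Cacna1h the order was I-CBP112, DMSO, C646 and ethanol. Its neighbours did not differ beyond their spread, with I-CBP112 minus DMSO at -0.17 ± 0.36 (95% interval -0.88 to 0.55) and C646 minus DMSO at 0.43 ± 0.36 (95% interval -0.28 to 1.13).

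Likeness was taken as the distance between the 3 log2 fold changes, over 12070 candidate genes with a mean count of 50 or more. Genes with clone-type symbols, such as Gm numbers and names ending in Rik, were left out of the candidates. Most like Cacna1b were Notch4 (distance 0.48), Colgalt2 (0.48) and Rassf5 (0.55). In the authors' deposited table for DMSO they stood at 1.55 ± 1.20, 1.42 ± 0.32 and 1.41 ± 0.25. For Cacna1h they were Ptprv (0.19), Snora9 (0.20) and Nanp (0.21), with -0.91 ± 0.31, -1.18 ± 0.51 and -0.90 ± 0.51 with I-CBP112 in the authors' deposited table. For Cacnb4 no candidate came as close. Nearest were a Rnu3a row (0.76), Angel1 (0.86) and Ralgps2 (0.89). With C646 they stood at -1.81 ± 2.04, -0.77 ± 0.34 and -0.73 ± 0.23 in the authors' deposited table. Another Rnu3a row, with a mean count of 3341, was higher with C646 there, at 0.74 ± 0.17 (DESeq2 adjusted p = 0.12). The distances are over 3 comparisons that share the ethanol libraries.

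The channel family has 26 genes in all as listed here, and of the 16 that are not members 4 were tested, 11 had too few counts and 1, Cacng5, was at 0. The pores Cacna1a and Cacna1e, of P/Q-type and R-type channels, and the gamma subunit Cacng7 passed in no table. Cacna2d3, an alpha2delta subunit, was lower with I-CBP112 at -1.42 ± 0.35 in the authors' deposited table (DESeq2 adjusted p = 0.0012). It stood at -0.50 ± 0.34 with DMSO and -0.17 ± 0.33 with C646 there, not past the test. Cacna1s, the pore of skeletal muscle, had a mean count of 0.945, and of 8 skeletal muscle markers 2 were measured.

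Of 23 listed genes for proteins that act on the channels 19 were measured, that is had an adjusted p in the DMSO table, and 4 rose and 2 fell with DMSO, 2 rose with I-CBP112, and 0 changed with C646. Their median log2 fold change was -0.07, 0.03 and 0.01 in these treatments. Rrad, a small GTPase of the RGK class that inhibits L-type channels, had 0.73 ± 0.19 with I-CBP112 (DESeq2 adjusted p = 0.0019) and 0.44 ± 0.19 with DMSO (DESeq2 adjusted p = 0.097) in the authors' deposited tables. Gem, of the same class, fell with DMSO by 0.70 ± 0.19 in the authors' deposited table. The calmodulin-dependent kinase gene Camk2g rose with DMSO at 0.49 ± 0.12, and the anchoring protein gene Akap5 rose with I-CBP112 at 0.81 ± 0.24, in the authors' deposited tables. Of 15 release channel and junction genes 11 were measured, and 5 rose with DMSO, 2 under I-CBP112 and 0 with C646, with medians of 0.60, 0.41 and 0.03. Ryr2 rose with DMSO at 1.25 ± 0.12 and with I-CBP112 at 1.00 ± 0.12 in the authors' deposited tables, and Casq2, the calcium buffer of the store, at 0.62 ± 0.13 and 0.57 ± 0.13. Triadin (Trdn) at 0.83 ± 0.18 and Cav3, caveolin of muscle membranes, at 0.70 ± 0.23 rose with DMSO in the authors' deposited table. Of 10 genes of store-operated and other calcium entry 9 were measured, and 2 rose and 1 fell with DMSO, 1 rose with I-CBP112 and 0 changed with C646, with medians of 0.24, 0.07 and -0.04. The store sensor Stim1 rose with DMSO at 0.56 ± 0.12 and the stretch-gated channel Piezo1 fell by 0.77 ± 0.17 in the authors' deposited table. Orai1 and Orai3, pores of store-operated entry, rose at 0.41 ± 0.15 with DMSO and 0.44 ± 0.15 with I-CBP112 in the authors' deposited tables. These calls against ethanol stand beside the same 16.0%, 9.90% and 0.00584% of all genes, and the lists were chosen with earlier results known.

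Every call above rests on the normal distribution of the Wald test with 2 libraries a group. When a t distribution (4 degrees of freedom) took its place, the adjusted p of Cacna1b with DMSO was 0.23, of Cacna1h with I-CBP112 0.47 and of Cacnb4 with C646 1, and no member passed in any comparison. Over all genes 1 passed with DMSO against ethanol and 0 in each other comparison. This setting thus does not set the members apart from other genes.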

How the data were processed

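RNA sequencing was done on 8 libraries, 2 per group; groups come from the sample titles. Per the submitters' processing notes, the authors used kallisto 0.43.1 and DESeq2 and the build GRCm38.p5. The sources used here state neither the strand setting nor the version of the second tool. The 3 files are comparison tables of 50600 genes. Per the file headers, baseMean is a signal, the authors' mean of size-factor normalised counts over all libraries, equal in the 3 tables. The log2 fold change is the authors', and its standard error and the Wald statistic are deposited as a score each. Each p-value and adjusted p is the authors' own, as deposited; adjusted values cover 14830 genes for DMSO and for I-CBP112 (mean count 26.1 or more), and 34250 for C646. The median SE was 0.185.

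The reference is not named and was read as ethanol, the group without a table. Of 2312 genes with a mean count below 0.16, 549, 536 and 622 were above the reference in DMSO, I-CBP112 or C646 only and 596 were below it in all 3, as 4 groups in 1 fit would give, with treatment over reference as the direction.

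Group means, 1 dispersion per gene and SEs between treatments were computed from the deposited values. The formula for the SEs gave 98.9%, 99.0% and 99.0% of the deposited SEs to within 1%. The dispersion was taken from those same SEs, so these shares do not check the SEs between treatments. Calls use an adjusted p below 0.05. Lengths and positions come from GENCODE M21 (GRCm38), which holds 50376 of the identifiers, and promoters from RefSeq. Python 3.11.15, numpy 2.4.6 and scipy 1.17.1 were used. Named are all 10 members and the 3 candidate genes nearest to each called member. From each other list up to 4 genes past the threshold in any table, with the largest Wald statistics, are named. Outside this rule Syn1, Map2, Tubb3, Cacna1a, Cacna1e, Cacna1s, Cacng5 and Cacng7 are named, none of them past the threshold. Gm37167 and the overlapping genes Chdh and A430018G15Rik are named as well. Members and lists were chosen with earlier results of these data known. Depth per library and library values are not given in these tables.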

Additional observations from a re-analysis of the deposited data

How the results depend on the processing

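No paired analysis was possible because the tables hold no values per library; for the same reason no library could be left out in turn. Under the t distribution with 4 degrees of freedom 0 members passed in each of the 6 comparisons, and over all genes 1 passed with DMSO against ethanol and 0 in the others. Adjusted over genes with a mean count of 100 or more, 0 members passed for DMSO against ethanol and for I-CBP112 minus DMSO, because Cacna1b falls below that count. For C646 minus DMSO its loss leaves 2 of 3. Over all genes the calls in these comparisons went from 2368 to 2261, 1034 to 1013 and 2349 to 2231. Adjusted over all genes with a p-value, 0 members passed for I-CBP112 against ethanol, and the calls among all genes went from 1468 to 1166. Under the upper bound of the SE, 0 members passed for I-CBP112 minus DMSO, 1 for C646 minus DMSO and 0 for C646 minus I-CBP112, and over all genes the calls went from 1034 to 237, 2349 to 839 and 1454 to 501. Centring on the median gene or scaling to equal totals changed no call of a member. Signs turned for values near 0: Cacna2d1 with C646 was -0.00021 centred on the median gene, Cacna1d with C646 was 0.0012 scaled to totals, and Cacna1c for C646 minus I-CBP112 was 0.0075 centred on the median gene. The adjusted p of Cacnb4 with C646 was 1 under the t distribution and ran from 2.58e-05 to 9.02e-05 over the other 5 settings; one of these, over the genes tested in the DMSO table, was chosen after seeing the data. The members' median level with ethanol was 47.5 normalised counts per kilobase and 59.7 with the longest transcript as length.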
